A study of Mus musculus with 90 samples.

Results

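The 9 genes described here are the rows of the count matrix that map to Tgfb1, Tgfbr1, Tgfbr2, Smad3, Smad7, Ski, Skil, Pmepa1 and Id1, out of 53697 gene rows in all, of which 53668 carry a symbol. They were followed in 2 mouse tumour cell lines: YUMM2.1, a melanoma line, and CT26, which is labelled as colorectal cancer. Each line was sampled in 15 groups of 3 replicates, 90 samples in all. Naive cells were taken at 0 weeks as control cells, labelled as given bovine serum albumin and described in the study as untreated, or 2 h or 24 h after a first dose of interferon γ (IFNγ) at 50 IU/mL. At 1, 2 and 3 weeks, control cultures without IFNγ stood beside cultures kept in IFNγ at that dose, and the latter were left without a new dose or were rechallenged with fresh IFNγ for 2 h or 24 h. No group is labelled as having received a mock rechallenge, so fresh IFNγ and the handling that went with it cannot be told apart. The replicates come from triplicate experiments.

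Transforming growth factor β (TGFβ) is a secreted ligand that is stored in a latent form and, once released, binds a type II receptor that activates a type I receptor, which phosphorylates the SMAD2 and SMAD3 transcription factors. SMAD complexes then switch on target genes, among them their own brakes. In tumours the pathway is known both for holding back growth of early lesions and for aiding invasion and immune evasion in later ones. Of the 9 genes, Tgfb1 encodes the ligand, Tgfbr1 and Tgfbr2 the type I and type II receptors, and Smad3 the transducer. Smad7 is the inhibitory SMAD, Ski and Skil (also called SnoN) are co-repressors that bind SMADs, and Pmepa1 encodes a membrane protein that keeps SMADs from the receptor. Id1 encodes an inhibitor of DNA binding and is a classical target of the related bone morphogenetic proteins (BMPs).

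In GRCm38, Tgfb1 lies on the plus strand of chromosome 7 from 25687002 to 25705077, Tgfbr1 on the plus strand of chromosome 4 from 47353222 to 47414931, and Tgfbr2 on the minus strand of chromosome 9 from 116084293 to 116175360. Smad3 lies on the minus strand of chromosome 9 from 63646767 to 63757994, and Smad7 is on the plus strand of chromosome 18. Ski is on the minus strand of chromosome 4 from 155154075 to 155222592, and Skil is on the plus strand of chromosome 3 from 31095058 to 31122577. On chromosome 2, Pmepa1 spans 173224458 to 173276533 on the minus strand and Id1 spans 152736251 to 152737410 on the plus strand. The annotation places no other gene over any of the 9.

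Library totals ran from 274719 to 3161276 counts in YUMM2.1 (median 1403265) and from 295157 to 2205285 in CT26 (median 1318011). 1 YUMM2.1 library (3 weeks of IFNγ without rechallenge, replicate 3) and 2 CT26 libraries (1 week and 3 weeks of IFNγ without rechallenge, replicate 3 of each) held under 25% of their line's median. The lines were checked against markers in the control cells. YUMM2.1 had the pigment cell markers Sox10 at 19.7 ± 1.94 CPM (SD, n = 3), Dct at 2.34 ± 1.04 CPM and Pmel at 0.819 ± 0.988 CPM. Mitf was at 0.574 ± 0.544 CPM there, and Tyr, Tyrp1 and Mlana were at 0. In CT26, Sox10 was at 0, but Dct was at 2.13 ± 1.31 CPM and Mitf at 1.69 ± 0.695 CPM. Dct and Mitf therefore did not mark YUMM2.1. CT26 had the intestinal epithelial markers Krt20 at 47.4 ± 2.32 CPM and Krt18 at 13.7 ± 1.01 CPM. Krt8 was at 0.207 ± 0.358 CPM and Cdx2 at 0.196 ± 0.340 CPM, with Epcam, Krt19, Cdh1, Vil1 and Lgals4 at 0. The treatment registered in both lines, with log2 fold changes of the IFNγ-induced factor Irf1 of 4.07 (SE 0.21, adjusted p = 2.26e-19) in naive YUMM2.1 and 3.46 (SE 0.22, adjusted p = 1.81e-15) in naive CT26 at 2 h.

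Levels are CPM, counts scaled to a common library size with TMM factors, given as mean ± SD over 3 replicates. Adjusted p-values are from the quasi-likelihood test of edgeR, with the Benjamini-Hochberg method applied over every gene of a comparison, and a gene is called changed below 0.05. The SE of a log2 fold change was derived from that test, as its absolute value divided by the square root of the F statistic. The fit of YUMM2.1 held 9589 genes with all 9 among them, and that of CT26 held 8516 genes with 7 among them, since Tgfbr1 and Smad3 did not pass the filter on low counts. In bulk samples of this kind, fewer cells with a transcript and less of it per cell cannot be told apart.

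After 2 h of rechallenge, Skil and Pmepa1 were higher than in the same culture without a new dose, and this held for no other of the 9 genes in either line. Skil rose at 1, 2 and 3 weeks in YUMM2.1 and at 1 and 2 weeks in CT26, and Pmepa1 rose at 1 and 3 weeks in YUMM2.1. Neither gene was called 2 h after a first dose of IFNγ.

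Skil in control YUMM2.1 cells was at 11.4, 12.1 and 5.75 CPM, and 2 h after a first dose it was at 9.27, 7.98 and 11.8 CPM. The groups overlap, and the log2 fold change was 0.02 (SE 0.34, adjusted p = 1). After 1 week of IFNγ it was at 14.1, 10.5 and 14.8 CPM without rechallenge and at 79.5, 78.7 and 68.6 CPM 2 h after rechallenge. Every rechallenged sample was above every sample of the reference group, with a log2 fold change of 2.57 (SE 0.28, adjusted p = 6.85e-09). At 2 weeks the levels were 13.0, 23.2 and 14.9 CPM without and 67.5, 69.8 and 51.5 CPM with 2 h of rechallenge, a log2 fold change of 1.92 (SE 0.27, adjusted p = 3.18e-06). This call was lost without replicate 1 (adjusted p = 0.0612). At 3 weeks they were 8.48, 7.94 and 27.8 CPM without and 37.8, 34.1 and 37.2 CPM with rechallenge, a log2 fold change of 1.73 (SE 0.32, adjusted p = 0.000976). The value of 27.8 CPM rests on 8 counts in the shallowest YUMM2.1 library. Without libraries under 25% of the median, the log2 fold change at 3 weeks was 2.12 (adjusted p = 3.3e-05), while the call was lost without replicate 1, without replicate 2 and in a fit of the compared groups alone, where the adjusted p reached 0.351.

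Skil was not called 24 h after rechallenge. In YUMM2.1 it stood at 24.7 ± 2.18 CPM 24 h after rechallenge at 1 week (log2 fold change 0.95, SE 0.31, adjusted p = 0.145), at 25.2 ± 6.78 CPM at 2 weeks and at 8.57 ± 1.496 CPM at 3 weeks, and none of these passed the test against the group without rechallenge. In the order of its 15 group means in YUMM2.1, from 7.52 to 75.6 CPM with a median of 13.1 CPM, the 3 groups taken 2 h after rechallenge were the highest. The 2-week group did not overlap the 3-week group below it, which in turn did not overlap the next group; the other 12 of 14 neighbouring pairs overlapped.

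Control CT26 cells had Skil at 6.32, 8.06 and 5.89 CPM, and cells 2 h after a first dose had it at 7.04, 4.39 and 7.94 CPM, which overlap. After 1 week of IFNγ it was at 8.48, 4.01 and 15.7 CPM without and 19.5, 29.7 and 18.4 CPM with 2 h of rechallenge, a log2 fold change of 1.44 (SE 0.35, adjusted p = 0.0437). That call was kept in 3 of 9 alternatives, with adjusted p-values from 0.0171 to 0.814, and was lost with the replicate block. At 2 weeks the levels were 7.97, 8.47 and 10.9 CPM without and 20.1, 27.5 and 27.4 CPM with rechallenge, a log2 fold change of 1.41 (SE 0.29, adjusted p = 0.00677), and this call was lost without replicate 1, without replicate 2 and in the fit of the compared groups alone (adjusted p up to 0.474). At 3 weeks the 17.4, 11.2 and 13.3 CPM without rechallenge lay below the 18.3, 18.7 and 24.1 CPM with it, but the difference of 0.49 on the log2 scale did not pass the test (SE 0.33, adjusted p = 0.84). The group means ran from 6.31 to 24.98 CPM with a median of 10.8 CPM, again with the 3 groups at 2 h of rechallenge on top, and no pair of neighbours in that order was free of overlap.

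**Figure D1:**
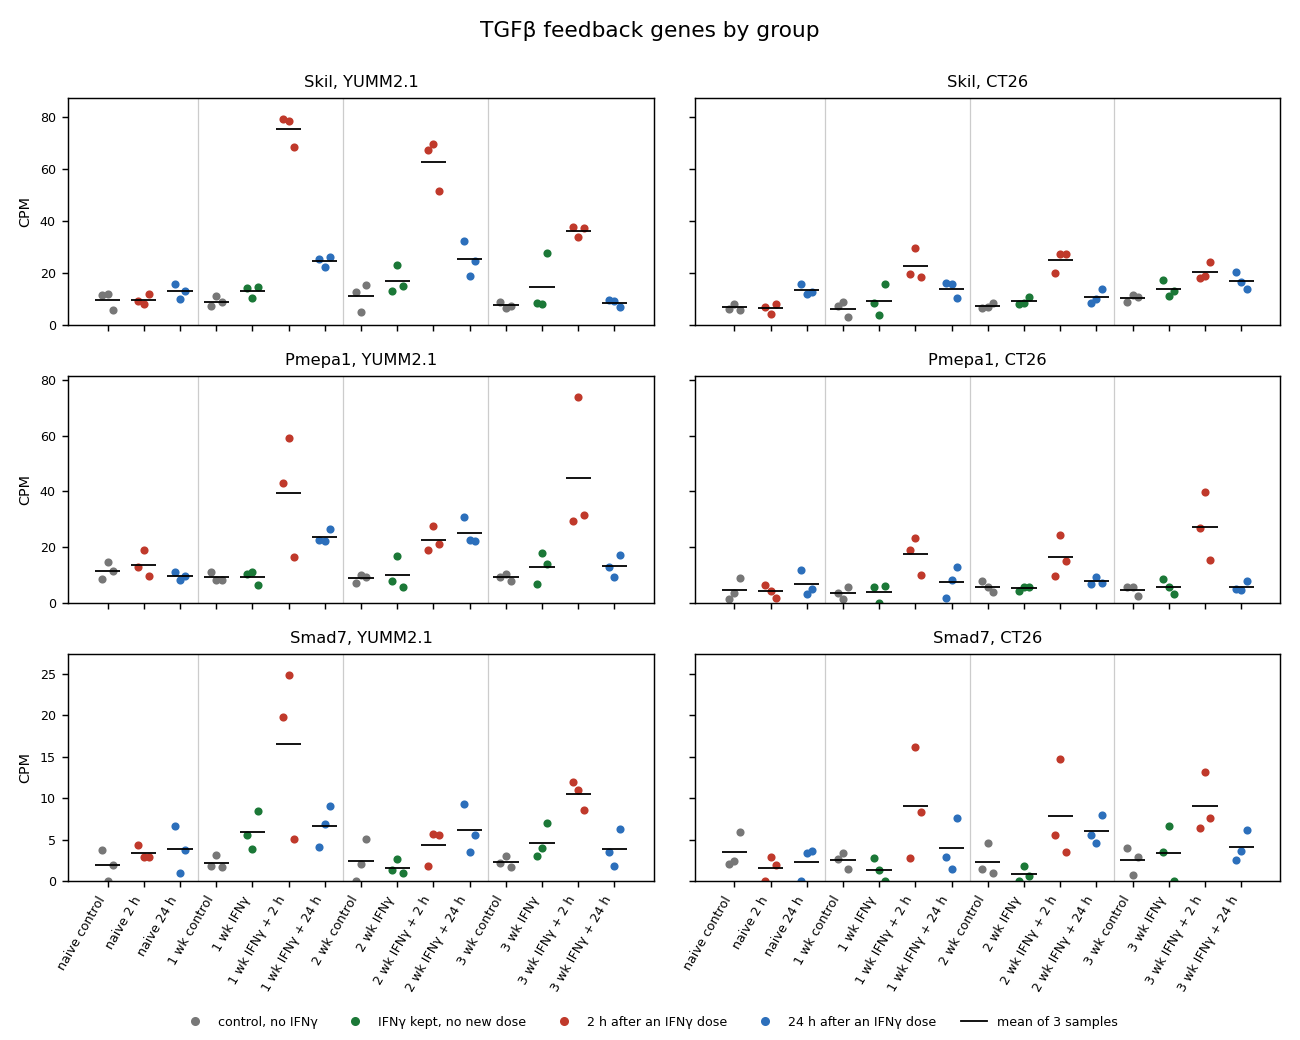
Levels of Skil, Pmepa1 and Smad7 in CPM on a linear axis from 0 for each of the 15 groups of YUMM2.1 (left) and CT26 (right). Each point is 1 sample, each bar is the mean of 3 samples, and red points mark samples taken 2 h after an IFNγ dose; Skil reached means of 75.6, 62.9 and 36.4 CPM in the rechallenged YUMM2.1 groups against 9.68 CPM 2 h after a first dose.

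Pmepa1 in YUMM2.1 was at 8.66, 14.5 and 11.5 CPM in control cells and at 12.8, 18.9 and 9.57 CPM 2 h after a first dose, with overlapping ranges. At 1 week it went from 10.5, 11.0 and 6.34 CPM without to 42.8, 59.2 and 16.5 CPM with 2 h of rechallenge, a log2 fold change of 2.03 (SE 0.38, adjusted p = 0.000898). All 3 rechallenged samples were above the reference group, replicate 3 by the least, and the call was lost without replicate 1 or without replicate 2 (adjusted p up to 0.131). At 3 weeks it went from 6.67, 17.9 and 13.9 CPM to 29.4, 73.9 and 31.5 CPM, a log2 fold change of 1.93 (SE 0.40, adjusted p = 0.00348), which was lost in the fit of the compared groups alone (adjusted p = 0.0904) and without replicate 1 (adjusted p = 0.31). At 2 weeks the 7.78, 16.9 and 5.77 CPM without and 19.2, 27.4 and 21.1 CPM with rechallenge did not overlap, and their log2 fold change was 1.21, which missed the threshold (SE 0.39, adjusted p = 0.313).

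Pmepa1 in YUMM2.1 was at 23.7 ± 2.33 CPM 24 h after rechallenge at 1 week and at 25.2 ± 4.89 CPM at 2 weeks. Its log2 fold changes there, 1.23 (SE 0.40, adjusted p = 0.149) and 1.36 (adjusted p = 0.148), did not pass the test. At 3 weeks and 24 h it was at 13.2 ± 3.92 CPM. The group means ran from 8.91 to 44.9 CPM with a median of 12.8 CPM, and of 14 neighbouring pairs only the fifth and sixth groups in the order, 2 weeks of IFNγ with 2 h of rechallenge and naive cells at 2 h, did not overlap.

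CT26 had little Pmepa1 outside the rechallenged cells. It was at 1.41, 3.72 and 8.83 CPM in control cells and at 6.40, 4.39 and 1.99 CPM 2 h after a first dose. With 2 h of rechallenge it was at 18.8, 23.4 and 10.0 CPM at 1 week, 9.53, 24.5 and 15.1 CPM at 2 weeks and 27.0, 39.6 and 15.3 CPM at 3 weeks. Without rechallenge the means in those weeks were 3.97 ± 3.45, 5.27 ± 0.73 and 5.86 ± 2.70 CPM, and no sample reached the lowest rechallenged sample of its week. The log2 fold changes were 2.11 (SE 0.62, adjusted p = 0.186), 1.59 (adjusted p = 0.37) and 2.03 (SE 0.55, adjusted p = 0.251), none of which passed the test over all genes. The 3 rechallenged groups at 2 h had the highest means of the 15 and did not overlap the fourth. Those of 1 and 2 weeks did overlap lower groups. Cells 24 h after rechallenge at 1 week reached 12.7 CPM, and naive cells at 24 h reached 11.8 CPM.

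Smad7 was sparse in both lines, and no change with rechallenge was called. In YUMM2.1 it was at 5.52, 3.85 and 8.45 CPM after 1 week of IFNγ and at 19.8, 24.9 and 5.08 CPM with 2 h of rechallenge, from 42, 42 and 4 counts, and the log2 fold change of 1.69 had an adjusted p of 0.214 (SE 0.56). Replicate 3 of the rechallenged group lay inside the range of the reference group. At 3 weeks, 3.03, 3.97 and 6.96 CPM stood against 11.9, 10.9 and 8.59 CPM, which do not overlap, with a log2 fold change of 1.41 (adjusted p = 0.368). In CT26 the samples after 2 weeks of IFNγ were at 0, 1.88 and 0.573 CPM, at most 3 counts each, and with 2 h of rechallenge at 5.51, 14.7 and 3.49 CPM (adjusted p = 0.165).

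The count of rechallenge calls among the 9 genes is set beside the share of all genes called. The paper lists Skil and Pmepa1 in a chronic IFNγ signature that it derived from this time course of YUMM2.1 and CT26. The counts here and below are therefore a description and not a test independent of these data. By the paper's methods, the signature took genes raised over baseline after 3 weeks of IFNγ. Genes that responded to rechallenge or rose in parallel cultures without IFNγ were removed. Here, neither gene was called for weeks of IFNγ without rechallenge against the same-week control. Skil was called at 2 h of rechallenge in both lines and Pmepa1 in YUMM2.1. The paper used a looser threshold, another reference and fewer samples, and why the results differ was not tested. In YUMM2.1, 2 of 9, 1 of 9 and 2 of 9 were called at 2 h of rechallenge at 1, 2 and 3 weeks, all higher, where 0.615%, 0.428% and 1.08% of all genes were called. At 24 h, 0 of 9 were called in each week, against 1.42%, 0.615% and 0% of all genes. In CT26, 1 of 7, 1 of 7 and 0 of 7 were called at 2 h, both higher, against 0.376%, 0.305% and 0.0117% (1 gene), and 0 of 7 at 24 h in each week against 1.32%, 0.658% and 0%. At 3 weeks and 24 h edgeR called no gene in either line, with an unadjusted p under 0.05 for 349 genes in YUMM2.1 and 442 in CT26, and DESeq2 called 1 and 0. The medians of the log2 fold changes over the 9 genes at 2 h in YUMM2.1 were 0.54, 0.30 and 0.35, beside 0.01, 0 and 0.03 over all genes. Over the 7 genes in CT26 they were 0.74, 1.35 and 0.49, beside 0.01, 0.02 and -0.0049 over all genes.

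Immediate-early genes, which respond within minutes to serum and many other stimuli, were set beside these results as a list of 10 chosen after the first results were seen. In YUMM2.1, 6 of them were tested: Egr1 and Egr2 rose 2 h after rechallenge at 1 week (log2 fold changes 2.65 and 1.87), and Egr1 and Myc at 3 weeks (2.14 and 0.87). At 2 weeks 0 of the 6 were called, with Egr1 at 0.66 and Egr2 at 1.43 (adjusted p = 0.107). The shares of all genes called at 1, 2 and 3 weeks were 0.615%, 0.428% and 1.08%. In CT26, 4 were tested and 0 were called at 2 h of rechallenge in any week, against 0.376%, 0.305% and 0.0117% of all genes. None was called 2 h after a first dose in either line. The list did not hold Junb or Ccn1, which are on the wider pathway list below. Junb was called at 2 h of rechallenge in all 3 weeks in YUMM2.1 (log2 fold changes 3.07, 2.03 and 1.65) and at 2 weeks in CT26 (1.37). Ccn1 was called in all 3 weeks, in YUMM2.1 only. The counts of 0 therefore cover the listed genes alone. The part of immediate-early genes in the result for Skil and Pmepa1 was not tested.

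With the control culture of the same week as the reference, an alternative added after seeing the data, 3, 1 and 5 of the 9 genes were higher in YUMM2.1 at 2 h of rechallenge at 1, 2 and 3 weeks and 0 were lower, where 5.28%, 1.81% and 10.7% of all genes were called. In CT26 2, 1 and 2 of the 7 were higher and 0 lower, where 3.63%, 4.23% and 8.29% of all genes were called. In YUMM2.1 Smad7 was then higher at 1 week (log2 fold change 2.94, adjusted p = 0.000409) and at 3 weeks (2.13, adjusted p = 0.0133), and at 3 weeks Ski (1.279, adjusted p = 0.0269) and Tgfb1 (0.68, adjusted p = 0.0309) joined Skil and Pmepa1. In CT26 Pmepa1 was higher at 1 week (2.17, adjusted p = 0.0129) and 3 weeks (2.61, adjusted p = 0.000494), and Skil in all 3 weeks, with log2 fold changes of 1.89, 1.75 and 0.93. These contrasts hold the weeks in IFNγ as well as the fresh dose.

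**Figure D2:**
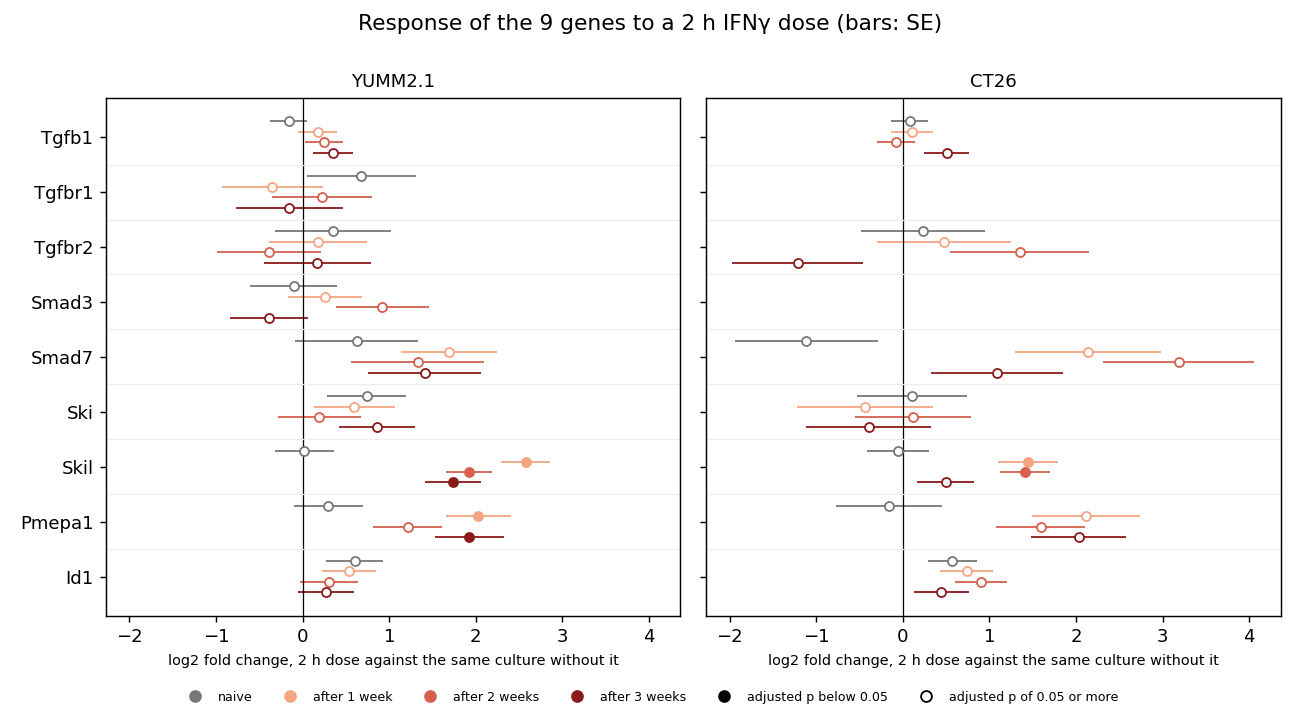
Log2 fold change 2 h after an IFNγ dose against the same culture without it, for naive cells and after 1, 2 and 3 weeks of IFNγ, for the 9 genes in YUMM2.1 (left) and the 7 tested in CT26 (right). Bars are SE and filled points have an adjusted p below 0.05: Skil in all 3 weeks (2.57, 1.92 and 1.73) and Pmepa1 at 1 and 3 weeks in YUMM2.1, and Skil at 1 and 2 weeks in CT26.

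The next comparison asked whether cells with 3 weeks of IFNγ behind them differed from naive cells at the same time after a dose. These groups also differ by 3 weeks in culture, which this comparison cannot tell apart from the exposure. At 2 h in YUMM2.1, 2 of 9 genes were higher, with 8.12% of all genes called. For CT26 it was 3 of 7 genes, with 10.3% of all genes called. Skil was higher by 1.91 on the log2 scale in YUMM2.1 (SE 0.29, adjusted p = 9.03e-06) and by 1.62 in CT26 (SE 0.33, adjusted p = 0.000602). Pmepa1 was higher by 1.72 (SE 0.35, adjusted p = 0.000956) and 2.66 (SE 0.52, adjusted p = 0.000363). These 4 calls were kept in all 9 alternatives.

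Smad7 was also higher in CT26 at 3 weeks, at 6.36, 13.2 and 7.63 CPM against 0, 2.93 and 1.99 CPM in naive cells at 2 h (log2 fold change 2.42, SE 0.78, adjusted p = 0.037). This rests on 8, 12 and 6 counts against 0, 4 and 3, and the call was lost when replicate 1, 2 or 3 was left out (adjusted p = 0.256, 0.145 and 0.0884). In YUMM2.1 Smad7 had a log2 fold change of 1.55 (SE 0.58, adjusted p = 0.0866) and Ski one of 0.89 (adjusted p = 0.153). The fold changes of 9 of 9 genes in YUMM2.1 were above 0, with a median of 0.86 beside 0.04 over all genes. In CT26 those of 5 of 7 genes were above 0, with a median of 0.25 beside 0.04. At 24 h none of the genes was called in either line, where 0.813% of all genes were called for YUMM2.1 and 2.48% for CT26. The groups compared at 2 h are also part of the rechallenge comparisons, so the 2 sets of values share samples.

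Whether the response itself differed between exposed and naive cells is a test of the difference of 2 fold changes. For 3 weeks, 0 of 9 genes in YUMM2.1 and 0 of 7 in CT26 were called at 2 h (0.115% and 0.211% of all genes) and at 24 h (0.615% and 1.2%). Skil in YUMM2.1 had a difference of 1.71 on the log2 scale (SE 0.48, adjusted p = 0.234) and Pmepa1 one of 1.63 (SE 0.57, adjusted p = 0.5). Without libraries under 25% of the median, the difference for Skil was 2.101 with an adjusted p of 0.0345. For 1 week, 2 weeks and the mean of 3 weeks, tests added after seeing the data, 0.146%, 0.125% and 0.146% of all genes were called in YUMM2.1, and Skil was called at 1 week (2.55, SE 0.45, adjusted p = 0.00101) and in the mean (2.06, SE 0.39, adjusted p = 0.00318). Its difference at 2 weeks was 1.90 (SE 0.44, adjusted p = 0.0556). Both calls were lost without replicate 1 and without replicate 2. In CT26, where 0.106%, 0.0822% and 0.153% of genes were called, 0 of 7 were, and Skil had a mean difference of 1.17 (adjusted p = 0.565).

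Neither a first dose nor weeks of IFNγ without rechallenge changed any of the 9 genes past the threshold. Among naive YUMM2.1 cells, 0.24% of all genes were called at 2 h and 0.886% at 24 h. Naive CT26 cells had shares of 0.235% and 2.04%. For 1, 2 and 3 weeks of IFNγ against the control culture of the same week, YUMM2.1 had shares of 0.73%, 1.12% and 0.97%, while CT26 had 0.728%, 1.62% and 7.28%. The nearest to a change in CT26 with a first dose was Skil at 24 h, at 15.7, 11.8 and 12.5 CPM against 6.32, 8.06 and 5.89 CPM in control cells (log2 fold change 0.95, SE 0.36, adjusted p = 0.245). These groups do not overlap.

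Group means of the ligand gene Tgfb1 in YUMM2.1 ran from 22.3 to 42.1 CPM (median 30.8 CPM), those of CT26 from 29.3 to 43.0 CPM (median 39.8 CPM), and all neighbours in either order overlapped. Control YUMM2.1 cultures were at 35.2, 40.0 and 39.6 CPM at 0 weeks and at 23.8, 15.5 and 27.7 CPM at 3 weeks. The samples at 3 weeks were all lower, with a log2 fold change of -0.76 (SE 0.21, adjusted p = 0.0978), and with library totals in place of TMM it was -0.80 with an adjusted p of 0.0274. In CT26 at 3 weeks it was at 27.8, 30.2 and 29.8 CPM with IFNγ and at 45.4, 37.3 and 36.5 CPM in the control culture. These groups do not overlap, but the difference was not called (log2 fold change -0.44, SE 0.25, adjusted p = 0.299). The share of all genes called between control cultures at 3 and 0 weeks was 0.511% for YUMM2.1 and 0.904% for CT26, and 0 of the 9 genes were among them.

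The receptor transcripts were low. Tgfbr1 group means were 2.68 to 7.53 CPM in YUMM2.1 and 0.637 to 3.44 CPM in CT26, and Tgfbr2 group means were 4.14 to 12.4 CPM and 1.36 to 8.48 CPM. Tgfbr2 in CT26 at 3 weeks was at 8.69, 16.8 and 0 CPM with IFNγ and at 2.43, 2.19 and 2.92 CPM in the control culture (log2 fold change 1.94, SE 0.76, adjusted p = 0.115). The 0 belongs to the shallow library, and without libraries under 25% of the median the log2 fold change was 2.26 with an adjusted p of 0.046.

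Smad3 ran from 3.74 to 16.7 CPM over the group means of YUMM2.1 and from 0.736 to 4.39 CPM in CT26. At 2 weeks in YUMM2.1 it was at 3.89, 4.46 and 2.89 CPM with IFNγ and at 6.42, 10.1 and 11.9 CPM in the control culture, which do not overlap, with a log2 fold change of -1.36 (SE 0.52, adjusted p = 0.401). At 3 weeks the order was the other way, with 10.9, 14.9 and, in the shallow library, 24.3 CPM with IFNγ and 7.93, 9.67 and 7.18 CPM in the control culture. Neither difference passed the test. Ski had its highest group mean in YUMM2.1 at 3 weeks with 2 h of rechallenge, at 11.2, 32.8 and 19.3 CPM against 11.5, 10.9 and 13.9 CPM without (log2 fold change 0.86, adjusted p = 0.429). In CT26 Ski stayed between group means of 1.77 and 6.75 CPM.

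Id1, the BMP target, had group means of 12.3 to 23.3 CPM in YUMM2.1. The range was 13.9 to 38.0 CPM in CT26, where 1 of 14 neighbouring pairs in the order did not overlap. Its highest group in CT26 was 1 week of IFNγ with 2 h of rechallenge, at 42.5, 40.5 and 30.9 CPM against 26.1, 13.4 and 31.3 CPM without, ranges that overlap. At 2 weeks it was at 12.4, 13.2 and 16.0 CPM without rechallenge and at 27.1, 16.5 and 35.5 CPM at 2 h (log2 fold change 0.90, adjusted p = 0.403) and 29.2, 31.6 and 25.3 CPM at 24 h (1.02, adjusted p = 0.165). Both rechallenged groups were above the reference group in all samples, and neither difference passed the test.

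**Figure D3:**
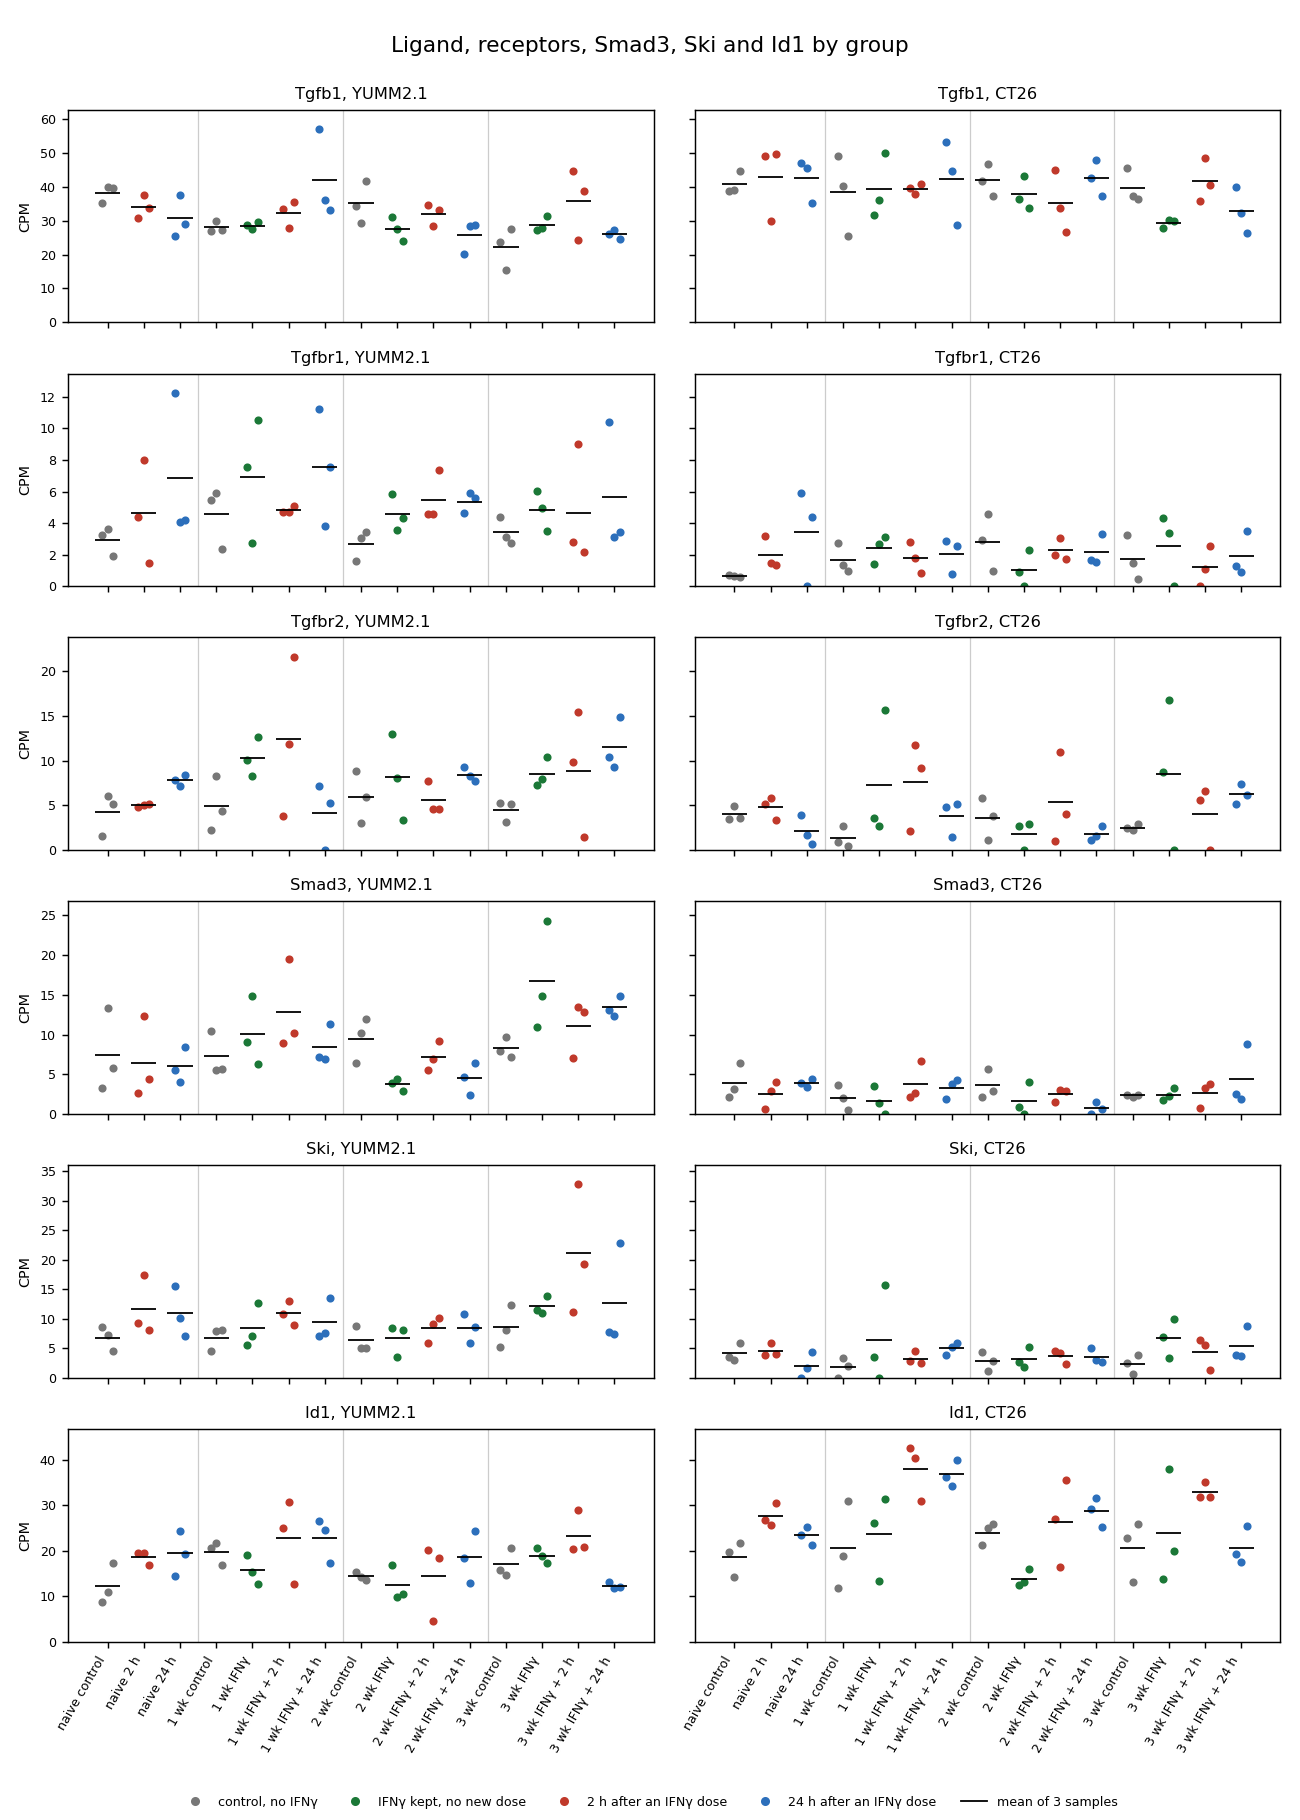
Levels of Tgfb1, Tgfbr1, Tgfbr2, Smad3, Ski and Id1 in CPM on linear axes from 0, for the 15 groups of YUMM2.1 (left) and CT26 (right), with 1 point a sample and a bar for the mean of 3. None of the 6 genes was called at 2 h of rechallenge, and Tgfb1 group means stay between 22.3 and 43.0 CPM over both lines.

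Control cells of the lines differed widely: 46% of 10339 genes were called between them at 0 weeks. Among the 9 genes 1 was called, Id1, which was lower in YUMM2.1 (12.3 ± 4.45 CPM) than in CT26 (18.6 ± 3.89 CPM), with a log2 fold change of -0.77 (SE 0.32, adjusted p = 0.0451). The call was kept in 5 of 9 alternatives, with adjusted p-values from 0.0302 to 0.427. Tgfbr1 had a log2 fold change of 1.86 (adjusted p = 0.0655) and Pmepa1 of 1.02 (adjusted p = 0.093). The share called among the 9 genes was below that of all genes. The line and its culture history cannot be told apart. On the wider list of pathway genes, 16 of 46 were higher in YUMM2.1 and 9 in CT26. Those of largest fitted difference were Bambi, a pseudoreceptor gene of the family (10.0 ± 3.42 CPM in YUMM2.1), the TGFβ-induced matrix protein gene Tgfbi (6.90 ± 2.86 CPM) and Id4, an inhibitor of DNA binding (3.36 ± 3.47 CPM), all 3 at 0 in CT26. In the other direction were Fst (0 in YUMM2.1 and 4.93 ± 3.64 CPM in CT26) and Inhba (0.606 ± 0.64 and 21.7 ± 0.62 CPM), which code for an activin antagonist and an activin subunit.

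Differences between the lines in their responses were tested in a fit of all 90 samples, and 0 of the 9 genes were called in any of 5 such contrasts. The shares over all genes were 0% for naive cells at 2 h, 0.106% for 3 weeks of IFNγ against control, 0.193% for 2 h of rechallenge at 3 weeks, 0.484% for 3-week against naive cells at 2 h, and 0.184% for control cultures at 3 against 0 weeks. For naive cells at 2 h the unadjusted p was under 0.05 for 368 genes, and DESeq2 called 1. Skil had a difference of 1.23 on the log2 scale in the rechallenge at 3 weeks (SE 0.45, adjusted p = 0.56). At 3 weeks the larger rise of Skil in YUMM2.1 was therefore not shown to differ from that in CT26. The rechallenge responses at the earlier weeks were not compared between the lines.

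A wider list of 73 genes of the pathway was read in the same comparisons, and 42 of them passed the filter in YUMM2.1 and 36 in CT26. At 2 h of rechallenge in YUMM2.1, 2, 4 and 5 of the 42 were higher at 1, 2 and 3 weeks and 0 were lower, against 0.615%, 0.428% and 1.08% of all genes called. Junb, which encodes an AP-1 transcription factor induced by TGFβ and by many other stimuli, rose in all 3 weeks, with log2 fold changes of 3.07 (SE 0.34, adjusted p = 6.85e-09), 2.03 (SE 0.31, adjusted p = 3.89e-05) and 1.65 (SE 0.36, adjusted p = 0.0071). Its samples were at 13.1, 6.05 and 6.34 CPM after 1 week of IFNγ and at 67.8, 68.6 and 99.1 CPM 2 h after rechallenge. Ccn1, a matricellular protein gene, also rose in all 3 weeks, by 1.56, 1.06 and 1.25 on the log2 scale (adjusted p = 6.05e-07, 0.00145 and 0.000185). Id3 (1.09, adjusted p = 0.00724) and Klf10 (0.55, adjusted p = 0.00865), a TGFβ-induced zinc finger gene, were called at 2 weeks.

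Also in YUMM2.1, at 2 h of rechallenge at 3 weeks, Thbs1, whose product thrombospondin 1 can activate latent TGFβ, rose by 1.31 on the log2 scale (adjusted p = 0.0101), Id2, a BMP target, by 0.76 (adjusted p = 0.0494) and Klf10 by 0.71 (adjusted p = 0.000773). At 24 h of rechallenge Thbs1 (1.23, adjusted p = 0.0186) and Junb (1.34, adjusted p = 0.0466) were higher at 1 week and Id3 (1.26, adjusted p = 0.000706) at 2 weeks. Thbs1 was also called in naive YUMM2.1 cells 24 h after a first dose, as 1 of the 42 genes, where 0.886% of all genes were called. It was at 52.4, 19.3 and 56.4 CPM there against 15.2, 18.2 and 14.7 CPM in control cells, with a log2 fold change of 1.49 (SE 0.35, adjusted p = 0.0154). The groups do not overlap, with replicate 2 close to the controls. In the added tests of the response difference at 2 h, Junb (2.73, adjusted p = 0.00723) and Ccn1 (1.49, adjusted p = 0.00439) were called at 1 week and Ccn1 in the mean of 3 weeks (1.21, adjusted p = 0.00356).

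In CT26 2, 2 and 0 of the 36 were higher at 2 h of rechallenge and 0 lower, against 0.376%, 0.305% and 0.0117% of all genes called. Id2 was called at 1 week (1.46, adjusted p = 1.19e-05) and 2 weeks (0.80, adjusted p = 0.0103), Id3 at 1 week (0.82, adjusted p = 0.037) and Junb at 2 weeks (1.37, adjusted p = 0.000506). At 24 h Id2 (1.13, adjusted p = 0.000663) and Id3 (0.85, adjusted p = 0.0114) were called at 1 week, and the added response difference at 2 h called Id2 at 1 week (1.27, adjusted p = 0.0443). Id2 and Id3 also rose in control cultures of CT26 between 0 and 3 weeks, by 1.22 (adjusted p = 3.81e-05) and 0.78 (adjusted p = 0.0176), in the absence of IFNγ. Between the lines, the change of control cultures over 3 weeks differed for Id2 (-1.20, adjusted p = 0.0218) and Fn1 (-0.66, adjusted p = 0.0208), both lower in YUMM2.1.

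**Figure D4:**
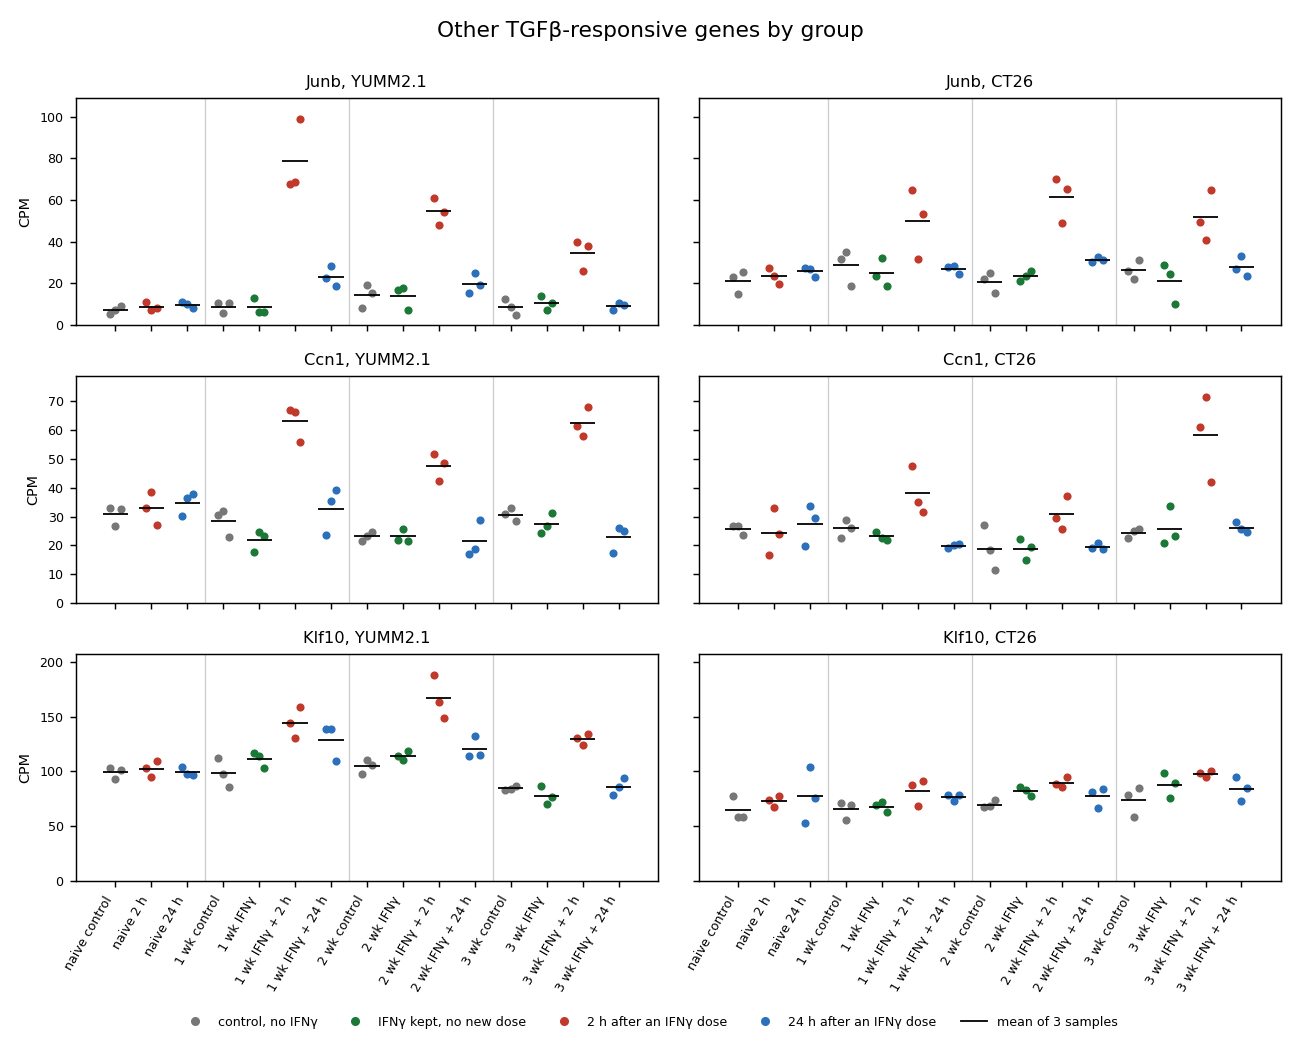
Levels of the TGFβ-responsive genes Junb, Ccn1 and Klf10 in CPM on linear axes from 0, for the 15 groups of YUMM2.1 (left) and CT26 (right), with 1 point a sample and a bar for the mean of 3. In YUMM2.1 the Junb samples 2 h after rechallenge at 1 week lie between 67.8 and 99.1 CPM, above all samples without a new dose.

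A few other genes of the wider list were called after weeks of IFNγ without rechallenge. In CT26 at 3 weeks, 2 of 36 were higher and 2 lower, where 7.28% of all genes were called: Fst, whose product follistatin traps activins, by 2.74 (adjusted p = 0.00334), Inhba, an activin subunit gene, by 1.501 (adjusted p = 0.00188), the BMP receptor gene Bmpr2 by -0.67 (adjusted p = 0.0431) and Furin, a protease that processes these ligands, by -0.63 (adjusted p = 0.00603). Inhba was at 26.9, 29.0 and 36.5 CPM with IFNγ and at 7.30, 10.2 and 12.7 CPM in the control culture, which do not overlap. Fst was at 7.82, 29.0 and 9.94 CPM against 3.25, 0.732 and 2.92 CPM. The third value with IFNγ of each gene belongs to the shallow library of replicate 3. Single calls of the wider list were not followed under the alternatives. Over all genes, the 620 calls of this comparison fell to 229 without replicate 1 and to 184 without replicate 2. At 2 weeks Cdkn1a (-0.53, adjusted p = 0.00451) and Fn1 (-0.37, adjusted p = 0.0313) were lower in CT26, against 1.62% of all genes called. In YUMM2.1 1 of 42 was called, Fn1 at 2 weeks (1.12% of all genes called), lower by 0.68 on the log2 scale (adjusted p = 0.000405). Fn1, the fibronectin gene, was also lower in YUMM2.1 control cultures at 3 than at 0 weeks (-0.87, adjusted p = 8.32e-06).

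Between 3-week and naive cells 2 h after a dose, 9 of the 42 were higher and 1 was lower in YUMM2.1, and 9 of 36 were higher and 3 lower in CT26, against 8.12% and 10.3% of all genes called. Led by size, these were Acvr2a (2.07), Thbs1 (2.04), Junb (1.92), Ltbp3 (1.47) and Bmpr1a (1.47) in YUMM2.1, and Smurf2 (2.54), Ccn2 (1.84), Thbs1 (1.81), Grem1 (1.54) and Fst (1.53) in CT26. The largest in each line rests on low levels. Acvr2a was at 6.38 ± 1.34 CPM against 1.60 ± 1.76 CPM in naive cells (adjusted p = 0.0435). Smurf2 was at 8.23 ± 1.67 CPM against 1.36 ± 0.096 CPM (adjusted p = 0.0316). Acvr2a encodes an activin receptor, Bmpr1a a BMP receptor, Ltbp3 a protein that stores latent TGFβ, Smurf2 a ubiquitin ligase that targets receptors and SMADs, Ccn2 a matricellular protein and Grem1 a BMP antagonist. At 24 h Fn1 was lower in YUMM2.1 (-0.70, adjusted p = 0.00062). In CT26 Id2 was higher (0.75, adjusted p = 0.0343), and Furin (-0.56, adjusted p = 0.0311) and Fn1 (-0.43, adjusted p = 0.0101) were lower. Fn1 in YUMM2.1 (-0.87) and Id2 in CT26 (1.22) also moved in these directions in control cultures from 0 to 3 weeks.

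Likeness to the pattern of a gene was read as Pearson's r of the group means of log2 CPM over the 15 groups of a line, as a description, since these groups share a library preparation and a scaling. Outside the 9 genes, Skil in YUMM2.1 was most like Junb (0.972) and Egr2 (0.929), and Pmepa1 was most like Lif (0.922) and Nod1 (0.910). In CT26 the most like were Usp25 (0.844) and Sp3 (0.838) for Skil, Lasp1 (0.873) and Unc5b (0.858) for Smad7, and Sulf2 (0.868) and Cttnbp2nl (0.865) for Pmepa1. Among the 9 genes themselves, Skil and Pmepa1 had r of 0.840 in YUMM2.1 and 0.831 in CT26. For Smad7 and Pmepa1 r was 0.835 and 0.838, and for Smad7 and Skil 0.732 and 0.726.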

How the data were processed

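Transcripts of YUMM2.1 and CT26 cells were counted with a 3′ digital gene expression protocol in 15 groups of 3 replicates per line. The authors deposited 1 matrix of whole-number counts per gene and sample, not normalized and not pooled. The submitters' processing notes name Salmon 0.13.1 and mm10 without their roles, and the study's methods import counts with tximport; whether the counts are rounded estimates, how molecules were counted and the annotation are not given in the sources used here. The methods state that outlying samples were left out without naming them, so all 90 samples were kept.

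Columns were matched to groups by their labels. The genes, lists and tests described here were chosen with earlier results of these data known. Counts were analysed in R 4.3.3 with edgeR 4.0.16 (limma 3.58.1): filterByExpr by group with a minimum count of 10, TMM, 1 quasi-likelihood model for all 15 groups of a line, or all 30 of both lines, no covariates, Benjamini-Hochberg adjustment and a threshold of 0.05. The scripts were tested on simulated data for 2 h of rechallenge at 3 weeks. Of genes given a log2 fold change of 1, up or down, 34.8% were recovered in YUMM2.1 and 36.1% in CT26. Among those in the range of mean levels that holds Skil and Pmepa1, the shares were 18.2% and 23.1%. For a log2 fold change of 2 over all changed genes they were 82.5% and 76.9%. A gene that was not called may therefore still have changed. Of the 90 pairs of replicates, 0 held identical counts.

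All 9 genes are named. Of the wider list of 73 genes, up to 5 called genes are named per comparison, those of largest absolute log2 fold change; 1 further gene of the list is not reported here. For each called gene of the 9, the 2 tested genes with the highest correlation over groups are named. Of the markers, Irf1 is given, with the pigment cell list in control cells of YUMM2.1 and the intestinal epithelial list in those of CT26. Sox10, Dct and Mitf are also given for CT26. Alternatives were DESeq2 1.42.0, library totals, no filter on low counts, the compared groups alone, a replicate block, omission of each replicate number in turn, and omission of libraries under 25% of the line median. The same-week control reference, the response differences at 1 week, 2 weeks and their mean, and the immediate-early list were added after seeing the data. Depth limits precision: genes with a few counts per sample carry a large counting error.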

Additional observations from a re-analysis of the deposited data

Results flagged for a closer look

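In YUMM2.1 the 2 h response of Skil after IFNγ exposure differed from its response to a first dose in 2 tests, both added after seeing the data. The response at 1 week exceeded the naive response by 2.55 on the log2 scale (SE 0.45, adjusted p = 0.00101), and the mean response over 3 weeks exceeded it by 2.06 (SE 0.39, adjusted p = 0.00318). Skil was higher in 3 of 3 samples 2 h after rechallenge at 1 week than in any sample without it, while the naive samples with and without a dose overlapped. Both differences lost the call when replicate 1 or replicate 2 was left out, with adjusted p-values up to 0.611 at 1 week and 0.887 for the mean. The planned test, at 3 weeks, gave 1.71 (SE 0.48, adjusted p = 0.234).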

How the results depend on the processing

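Under the alternatives, 0 of the log2 fold changes of the 9 genes that were called in any setting changed sign. The median over all genes for CT26 at 3 weeks and 2 h of rechallenge was -0.0049 with TMM and 0.0109 with DESeq2. Of 15 calls among the 9 genes, 5 were kept under all 9 alternatives: Skil in YUMM2.1 at 1 week and 2 h of rechallenge, and Skil and Pmepa1 between 3-week and naive cells at 2 h in both lines. Over 2 h and 24 h of rechallenge the number of calls in YUMM2.1 was 5, against 3 with the compared groups alone, and 1 to 5 when a replicate number was left out. In CT26 it was 2, against 1 with DESeq2, 4 with no filter on low counts, 1 with the compared groups alone and 0 to 2 when a replicate number was left out. Between control cultures of YUMM2.1 at 3 and 0 weeks, 0 calls became 1 with library totals. Without libraries under 25% of the median, the response difference in YUMM2.1 went from 0 to 1 call, continued IFNγ in CT26 from 0 to 1, and the baseline of the lines from 1 to 0. The added response differences went from 2 calls to a range of 0 to 2 without 1 replicate number in YUMM2.1, and from 0 to 2 with no filter on low counts in CT26. The baseline call also went to 0 with no filter on low counts and ranged from 0 to 2 without 1 replicate number. The cause was not tested.

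Replicate numbers did not pair the samples: in 0 of 14 comparisons in each line were all same-numbered pairs correlated above 0.1, and 13 of 45 samples in YUMM2.1 and 21 of 45 in CT26 correlated best with their own number. With the replicate block, calls in CT26 over the rechallenge went from 2 to 1 (Skil at 1 week), no other call among the 9 genes was lost, and the count over all genes moved by over 1.5 times in 0 of 44 comparisons. It did so in 6 with DESeq2, 4 with library totals, 30 with no filter on low counts, 12 with the compared groups alone, 1 without the shallow libraries, and 33, 27 and 15 without replicate 1, 2 and 3. Summed over the 44 comparisons, 9202 calls became 9110, 9545, 10620, 7564, 9680, 5054, 5945 and 7720 in that order. Library totals moved the median of all genes by over 0.1 on the log2 scale in 6 comparisons, the largest shifts being those of 3 weeks of IFNγ against control in CT26 (0.0142 with TMM and 0.215 with library totals), 3-week against naive CT26 cells at 2 h (0.0447 and 0.224) and the baseline of the lines (0.0809 and 0.243).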
